A study of Homo sapiens with 6 samples.

Results

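Mitochondrial ribosomal proteins are the nuclear-encoded proteins of the ribosome that works inside mitochondria. They were taken here as the protein-coding genes of the count table whose NCBI symbol is MRPL or MRPS followed by a number and, in a few cases, a letter. This rule gave 77 genes of the 28307 in the table, of which 51 carry large-subunit and 26 small-subunit proteins. MRPS18A and MRPS30 count with the large subunit, where their proteins sit in spite of their symbols. Of the 77, 73 had enough counts to be tested.

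RNA sequencing of total RNA was carried out on OCI-AML3, an established human acute myeloid leukaemia line in which 1 copy of NPM1 carries a mutation that moves the protein to the cytoplasm (NPM1c). The siNPM1c cells received an siRNA against NPM1c and the siControl cells a control siRNA, each at 10 nM by lipid transfection, and RNA was taken on day 3. Each group held 3 libraries, all 6 libraries carry 1 batch label and the genotype label WT, and no label says that replicates came from separate cultures, so the p-values reflect the scatter of these 6 libraries alone, which may be technical. The comparison asked which transcripts differ when the siRNA against NPM1c is present.

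The mitochondrial ribosome translates the few messenger RNAs that the mitochondrial genome encodes, all for membrane subunits of the respiratory chain and ATP synthase. Its proteins are made in the cytosol from nuclear genes and imported, and they join ribosomal RNAs that are transcribed inside the organelle. Some descend from bacterial ribosomal proteins and others exist only in mitochondrial ribosomes. Acute myeloid leukaemia cells are known to depend on mitochondrial translation and respiration.

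Total counts per library ran from 15075235 to 25190122. Ribosomal RNA genes took 70.2% ± 0.813 of the counts in siNPM1c libraries and 63.8% ± 0.753 in siControl libraries (SD, n = 3 each). Protein-coding genes took 21.8% ± 0.495 in siNPM1c libraries and 28.5% ± 0.457 in siControl libraries. NPM1, the target, had 293, 500 and 350 counts in siNPM1c libraries against 922, 1366 and 922 in siControl libraries, or -1.10 ± 0.05 (SE) on the log2 scale (adjusted p = 5.82e-51 by edgeR). These counts are for the whole gene, so they cannot show whether the mutant or the normal transcript fell. Of 10 markers of myeloid blasts, 8 were measured above the filter, including SPI1, CEBPA, PTPRC and CD33, while KIT had at most 2 counts in a library and CD34 8 to 19. Of the 8 tested, 4 rose and 1 fell on TMM scaling: SPI1 was at 0.64 ± 0.03 and PTPRC at -0.57 ± 0.05 on the log2 scale, and CEBPA at 0.26 ± 0.02, which became -0.21 without TMM factors. Of 13 genes listed as markers of other cell types, several, among them CD3D and HBB, were at 0 in every library. The 3 that passed the filter do not by themselves show that other cells were present. Those highest in level were NCAM1 and PECAM1, which averaged 49.3 and 52.6 CPM in siNPM1c libraries and 44.1 and 43.0 CPM in siControl libraries (CPM is the usual depth-scaled count, here on the TMM-adjusted library size). The part of either marker list in any result was not tested.

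The mitochondrial ribosomal protein genes did not move as a block. At an adjusted p under 0.05 (quasi-likelihood test of edgeR, adjusted after Benjamini and Hochberg over 12938 genes), 10 of the 73 tested members were higher in siNPM1c libraries, 11 were lower and 52 were not called. In bulk RNA, fewer cells with a transcript and less of it per cell cannot be told apart. The calls are 13.7% and 15.1% of the members, where 21.3% of all genes tested were called higher and 21.4% lower (42.7% in either direction). The median log2 fold change of the members was -0.03, against -0.01 over all genes tested, and 35 members lay above 0. Member values ran from -0.83 for MRPL50 to 0.70 for MRPS18C, and on TMM scaling no member reached an absolute log2 fold change of 1, which 3.86% of all genes tested did. The 3 siNPM1c libraries lay wholly above the 3 siControl libraries in 13 members and wholly below them in 17, against 24.3% and 24.9% of all genes tested (49.2% in either direction).

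TMM scaling assumes that most genes are level, and the directions above depend on it. When raw library totals were used without TMM factors (library sizes alone), the median of all genes became -0.48 and that of the members -0.50. Those totals hold ribosomal RNA, whose share was larger in siNPM1c libraries. Genes for 7SL, another structural RNA, also took more of the counts, 5.07% in siNPM1c and 4.30% in siControl libraries. What either share contributed to the shift was not tested. Without TMM factors 0 members were higher and 60 lower, beside 3.9% and 71.5% of all genes tested. In that setting 9 members reached an absolute log2 fold change of 1. Leaving out siNPM1c replicate 2 reduced the lower calls to 5, leaving out siControl replicate 2 reduced them to 6, and DESeq2 called 6 members higher and 4 lower. The shares of all genes called in these settings are not given, so such drops cannot be read as particular to the members.

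**Figure D1:**
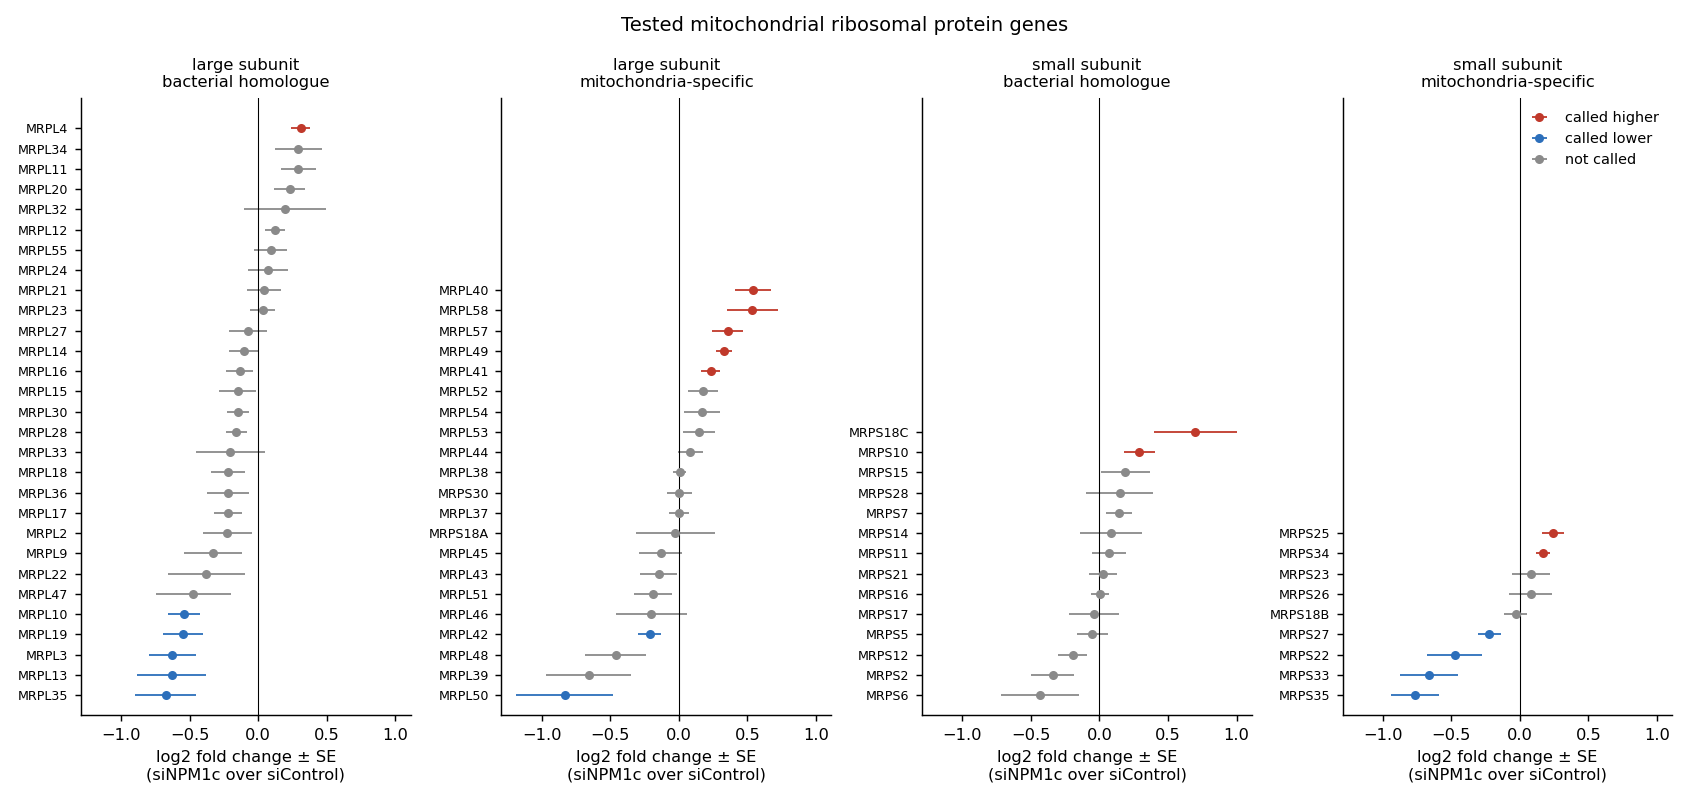
Log2 fold change (siNPM1c over siControl, x axis) of the 73 tested members on TMM scaling, split by subunit and by origin; points are edgeR estimates, bars are 1 SE, and colour marks the call. The 10 called higher and 11 called lower members lie within -0.83 to 0.70 around a median of -0.03; with library sizes alone no member was called higher.

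The higher members came from both subunits. On TMM scaling 6 of 50 tested large-subunit genes (12%) and 4 of 23 tested small-subunit genes (17.4%) rose. All 10 had siNPM1c libraries wholly above siControl libraries, which rests on the same libraries as the calls and is no further support. With library sizes alone MRPL4, MRPL41, MRPL49, MRPL57, MRPS10, MRPS25 and MRPS34 turned below 0. Of these, MRPL4, MRPL41, MRPL49, MRPS25 and MRPS34 were then called lower. MRPL40, MRPL58 and MRPS18C stayed above 0 without a call. MRPL49, a protein found only in mitochondrial ribosomes, had 31.1, 31.3 and 30.4 CPM in siNPM1c libraries against 24.2, 24.8 and 24.7 CPM in siControl libraries. The groups were well apart (log2 fold change 0.33 ± 0.06, SE; adjusted p = 5.42e-07, edgeR), and no other member had a smaller p. The gene lies at chr11:65122183-65127371 (GENCODE 29, GRCh38), and its exons overlap those of FAU and SYVN1 on the opposite strand. FAU, a cytosolic ribosomal protein gene, rose by nearly the same amount (0.34 ± 0.04), and reads from the shared stretch cannot be told apart, since nothing in the sources used here says whether strand was used in counting.

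MRPL4 (chr19:10251951-10260055), the homologue of the bacterial protein that lines the tunnel through which new chains leave the ribosome, had 22.0, 23.0 and 21.0 CPM in siNPM1c libraries against 16.6, 18.04 and 18.8 CPM in siControl libraries. Every siNPM1c library was above every siControl library (log2 fold change 0.31 ± 0.07; adjusted p = 8.25e-05, edgeR). Exons of MRPL4 overlap those of AC011511.2 and AC011511.3 on the opposite strand. MRPL40 (chr22:19432545-19436075), whose gene lies in the chromosome 22 segment lost in DiGeorge syndrome, had 7.30, 7.62 and 5.88 CPM in siNPM1c libraries against 4.67, 4.78 and 4.95 CPM in siControl libraries. This is 1.45-fold higher (0.54 ± 0.13; adjusted p = 0.000194, edgeR), with the third siNPM1c library nearest to the siControl libraries. MRPL57 (chr13:21176658-21179084), a small mitochondria-specific protein, had 8.95, 8.38 and 9.52 CPM in siNPM1c libraries against 7.12, 6.85 and 6.95 CPM in siControl libraries. The siControl values were tightly grouped and lay below all siNPM1c values (0.36 ± 0.11; adjusted p = 0.00476, edgeR).

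MRPL58, also known as ICT1, is a peptidyl-tRNA hydrolase built into the large subunit that can release chains from stalled ribosomes. It had 3.01, 3.69 and 3.24 CPM in siNPM1c libraries against 2.22, 2.10 and 2.69 CPM in siControl libraries. The groups were separate, at 0.54 ± 0.18 on the log2 scale (adjusted p = 0.0122, edgeR). MRPL41, another mitochondria-specific large-subunit protein, had 21.4, 22.2 and 22.6 CPM in siNPM1c libraries against 19.2, 18.8 and 18.3 CPM in siControl libraries, a narrow but clean separation (0.23 ± 0.07; adjusted p = 0.00289, edgeR).

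Among small-subunit genes, MRPS34 had 42.7, 39.5 and 36.7 CPM in siNPM1c libraries against 35.8, 35.6 and 34.1 CPM in siControl libraries. MRPS34 keeps the small subunit stable, and its loss causes a form of Leigh syndrome; the siNPM1c libraries spread more widely than the siControl libraries but did not meet them (0.17 ± 0.05; adjusted p = 0.00483, edgeR). MRPS25, a mitochondria-specific protein, had 17.3, 15.9 and 14.6 CPM in siNPM1c libraries against 12.95, 13.6 and 13.6 CPM in siControl libraries (0.24 ± 0.08). MRPS10, the counterpart of bacterial S10, had 9.40, 7.86 and 7.83 CPM in siNPM1c libraries against 6.12, 7.32 and 6.68 CPM in siControl libraries (0.29 ± 0.11). Both groups of libraries were separate in each of these genes, though without siNPM1c replicate 1 no small-subunit gene was called higher.

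Humans have 3 relatives of bacterial S18, of which MRPS18C was called and MRPS18B and MRPS18A were not. In the split by descent MRPS18C counts as the bacterial homologue, and MRPS18A and MRPS18B, which have mitochondria-specific names in the ribosome nomenclature, count as mitochondria-specific. MRPS18C had 1.204, 1.05 and 1.76 CPM in siNPM1c libraries against 0.667, 0.978 and 0.700 CPM in siControl libraries, the largest log2 fold change of any member and also one of the least certain (0.70 ± 0.30; adjusted p = 0.0495, edgeR). MRPS18B, on the small subunit, had 14.0, 14.0 and 13.2 CPM in siNPM1c libraries against 11.95, 14.9 and 14.9 CPM in siControl libraries (-0.03 ± 0.08). MRPS18A, on the large subunit, had 1.204, 0.910 and 1.42 CPM in siNPM1c libraries against 1.00, 1.16 and 1.35 CPM in siControl libraries (-0.02 ± 0.29). The groups overlapped in MRPS18A and MRPS18B, and the difference between the 3 genes' fold changes was not tested.

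The lower members also came from both subunits. Of 29 tested large-subunit genes with a bacterial homologue 5 fell (17.2%, against 21.4% of all genes tested), which were MRPL10, MRPL3, MRPL13, MRPL19 and MRPL35, and the mitochondria-specific MRPL42 and MRPL50 fell beside them. In the small subunit MRPS35, MRPS33, MRPS27 and MRPS22 fell, all 4 mitochondria-specific. All but MRPL19 had siNPM1c libraries wholly below siControl libraries, which again is no support beyond the calls.

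MRPL10 (chr17:47823272-47831541) anchors the stalk that recruits translation factors. It had 5.94, 6.18 and 6.01 CPM in siNPM1c libraries against 8.40, 9.24 and 8.67 CPM in siControl libraries. The siNPM1c values were close together and far below the siControl values, at 1.45-fold lower (log2 fold change -0.54 ± 0.11; adjusted p = 2.36e-05, edgeR). MRPL12, the stalk protein that MRPL10 carries, had 20.7, 20.4 and 19.7 CPM in siNPM1c libraries against 20.4, 18.2 and 17.4 CPM in siControl libraries, with overlapping groups (0.12 ± 0.07; adjusted p = 0.16, edgeR).

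MRPL3, a core protein near the catalytic centre whose mutation causes a mitochondrial cardiomyopathy, had 2.78, 2.68 and 2.57 CPM in siNPM1c libraries against 4.73, 3.84 and 3.93 CPM in siControl libraries. It was 1.54-fold lower, with no overlap (-0.62 ± 0.17; adjusted p = 0.00119, edgeR). MRPL19 had 3.54, 3.54 and 4.53 CPM in siNPM1c libraries against 5.84, 6.52 and 4.25 CPM in siControl libraries; the third libraries of the 2 groups crossed, although the gene was called (-0.55 ± 0.15; adjusted p = 0.000882, edgeR). MRPL35, the counterpart of bacterial L35, had 1.81, 1.49 and 1.42 CPM in siNPM1c libraries against 2.002, 3.04 and 2.21 CPM in siControl libraries (-0.67 ± 0.22). MRPL13, the counterpart of bacterial L13, had 1.35, 1.05 and 1.35 CPM in siNPM1c libraries against 1.95, 2.17 and 1.51 CPM in siControl libraries (-0.63 ± 0.25). These last 2 genes were low in every library, and neither call held without siNPM1c replicate 2 or without siControl replicate 2.

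MRPS35 had the smallest adjusted p of the lower small-subunit genes, with 2.63, 2.01 and 2.63 CPM in siNPM1c libraries against 4.73, 3.55 and 4.04 CPM in siControl libraries. All siNPM1c libraries lay well below the siControl libraries (-0.77 ± 0.18; adjusted p = 0.00012, edgeR). MRPS33 had 2.26, 1.341 and 1.55 CPM in siNPM1c libraries against 2.34, 2.97 and 2.48 CPM in siControl libraries, with the first siNPM1c library just below the siControl range (-0.66 ± 0.21; adjusted p = 0.00726, edgeR). MRPS22, in which mutations cause a severe mitochondrial disease, had 2.41, 1.96 and 1.76 CPM in siNPM1c libraries against 2.89, 2.50 and 3.18 CPM in siControl libraries (-0.48 ± 0.20). MRPS27, a pentatricopeptide repeat protein, had 12.04, 13.6 and 12.4 CPM in siNPM1c libraries against 15.2, 14.7 and 14.9 CPM in siControl libraries (-0.22 ± 0.08). The change in MRPS27 was smaller and more precisely measured than that in MRPS22, which has fewer counts.

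MRPL42 had 11.1, 11.8 and 13.4 CPM in siNPM1c libraries against 14.6, 13.6 and 13.9 CPM in siControl libraries (-0.21 ± 0.09; adjusted p = 0.0363, edgeR), and its value turned to 0.02 with a correction for GC content. MRPL50 had the largest decrease and the lowest level, with 0.527, 0.623 and 0.473 CPM in siNPM1c libraries against 1.22, 0.942 and 0.808 CPM in siControl libraries. The groups did not overlap, but its 95% interval ran from -1.52 to -0.14 (-0.83 ± 0.35; adjusted p = 0.0461, edgeR).

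**Figure D2:**
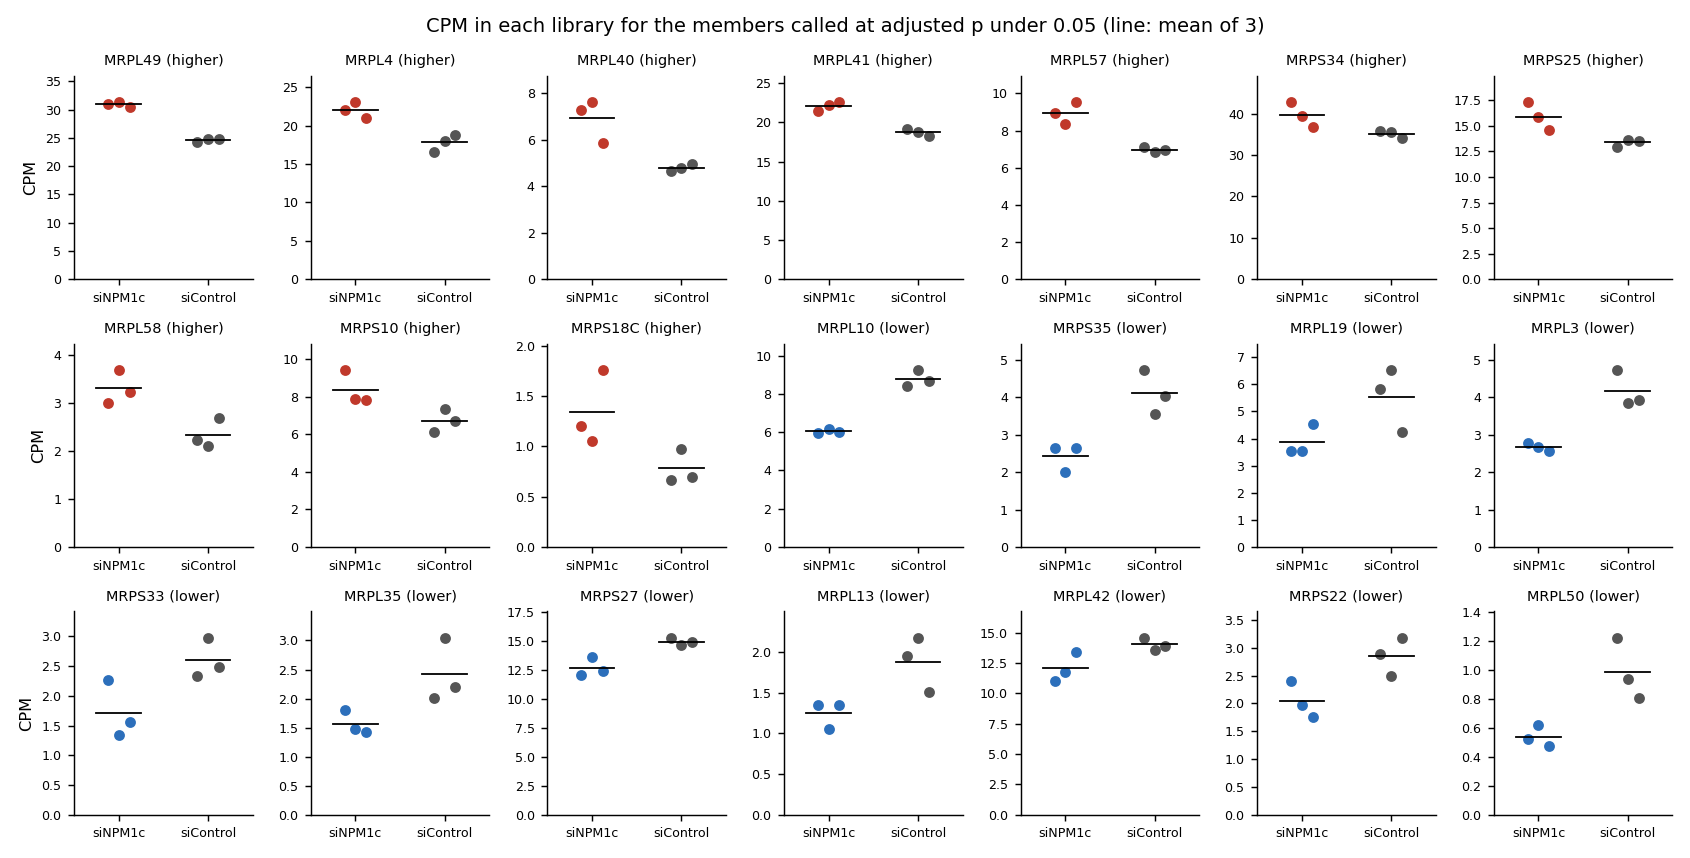
CPM (y axis, from 0, on the TMM-scaled library size) in each library for the 10 members called higher and the 11 called lower, siNPM1c left of siControl; points are libraries and lines are means of 3. The groups are separate in every panel except MRPL19, where 1 siNPM1c library at 4.53 CPM lies above the lowest siControl library at 4.25 CPM; with library sizes alone none of the 10 was called higher.

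Under every alternative tried other than library sizes alone, 5 members remained called, MRPL4, MRPL40, MRPL49 and MRPL57 as higher and MRPL10 as lower. Over those 18 settings MRPL10 stayed between -0.62 and -0.49, MRPL40 between 0.46 and 0.64, MRPL49 between 0.25 and 0.35, MRPL57 between 0.31 and 0.42, and MRPL4 between 0.17 and 0.35. MRPL3 and MRPS35 were called in all 17 of these settings that tested them. With library sizes alone MRPL4 and MRPL49 were called lower. The other calls, MRPL41 apart, each ended without at least 1 library. Without siNPM1c replicate 1 the calls of MRPS34, MRPS25, MRPS10, MRPS18C, MRPL42, MRPL50 and MRPS27 ended, and without siNPM1c replicate 2 those of MRPL58, MRPL13, MRPL35, MRPL42, MRPL50, MRPS22 and MRPS33. Without siNPM1c replicate 3 the calls of MRPS18C, MRPL50, MRPS22 and MRPS27 ended. Without siControl replicate 1 those of MRPS10, MRPS18C, MRPL13, MRPL42, MRPL50, MRPS22 and MRPS27 ended, without siControl replicate 2 those of MRPL58, MRPL13, MRPL19, MRPL35, MRPL50 and MRPS33, and without siControl replicate 3 those of MRPS10, MRPS18C, MRPL42 and MRPS22. No direction turned in these repeats: MRPS18C lay between 0.47 and 0.94, MRPS10 between 0.22 and 0.37, MRPL58 between 0.44 and 0.64, MRPS34 between 0.13 and 0.22, and MRPS25 between 0.20 and 0.30. Among the lower members MRPL50 lay between -0.96 and -0.68, MRPS33 between -0.87 and -0.47, MRPL35 between -0.79 and -0.44, MRPL13 between -0.75 and -0.48, MRPL19 between -0.69 and -0.39, MRPS22 between -0.58 and -0.39, MRPS27 between -0.28 and -0.19, and MRPL42 between -0.28 and -0.16.

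The 52 uncalled members differed in how closely they were measured. For 11 of them the 95% interval of the log2 fold change stayed within 0.3 on either side of 0, and for 18 it reached past 0.5, so that a change of that size lay within their intervals. MRPL38 had a narrow interval, with 44.2, 43.6 and 43.9 CPM in siNPM1c libraries against 43.9, 45.2 and 41.4 CPM in siControl libraries and bounds of -0.09 and 0.10. MRPL37 (0.00 ± 0.07), MRPS16 (0.00 ± 0.07) and MRPL23 (0.03 ± 0.09) were similarly narrow. These intervals hold on TMM scaling, and with library sizes alone MRPL38 (-0.46), MRPL37 (-0.47), MRPS16 (-0.46) and MRPL23 (-0.44) were called lower. MRPS30, a large-subunit protein also known as PDCD9, had 11.7, 10.6 and 10.9 CPM in siNPM1c libraries against 10.4, 11.4 and 11.1 CPM in siControl libraries, with overlapping groups (0.00 ± 0.09).

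MRPL45, which ties the ribosome to the inner membrane at the tunnel exit, had 3.46, 3.74 and 3.65 CPM in siNPM1c libraries against 4.34, 3.91 and 3.72 CPM in siControl libraries. Its groups overlapped at the edge, and its interval ran from -0.44 to 0.18. MRPL22, whose bacterial counterpart also lines the exit tunnel, had 0.677, 1.341 and 1.01 CPM in siNPM1c libraries against 1.45, 1.38 and 1.29 CPM in siControl libraries, and its interval ran from -0.93 to 0.17. The uncalled members nearest to the threshold were MRPL11 above 0 (0.29 ± 0.13; adjusted p = 0.054, edgeR) and MRPS2, MRPL17, MRPL39 and MRPL28 below it, with log2 fold changes of -0.34, -0.22, -0.66 and -0.16.

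The 4 members without enough counts for a test were MRPL1, MRPS9, MRPS24 and MRPS31. MRPL1 had 4, 9 and 4 counts in siNPM1c libraries against 7, 16 and 15 in siControl libraries, and MRPS31 had 9, 6 and 8 against 15, 23 and 9. MRPS9 had 8, 4 and 7 counts in siNPM1c libraries against 5, 9 and 10 in siControl libraries. MRPS24 had 0, 5 and 2 counts in siNPM1c libraries against 0, 1 and 0 in siControl libraries. Its exons overlap those of URGCP-MRPS24 on the same strand, and how reads from the shared stretch were counted is not given. No direction can be read from counts this low.

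Although the proteins occur in the assembled ribosome mostly in single copies, their transcripts were far from equal in level. Per kilobase of transcript, MRPS34 was highest at 36.5 CPM per kilobase over all 6 libraries, followed by MRPL38 at 23.1 and MRPL12 at 18.9, against a median member of 4.07. The lowest tested members were MRPL50 at 0.230, MRPL22 at 0.375 and MRPL35 at 0.535 CPM per kilobase, so that the extremes were 159-fold apart. Total counts over the 6 libraries ran from 90 to 4954 per tested member, with a median of 614. By level, the calls were made on 7 of 20 members under 3 CPM, 7 of 34 members from 3 to 10 CPM and 7 of 19 members at 10 CPM or more, while among protein-coding genes of the same levels 26.9%, 39.2% and 58.0% were called.

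By subunit, 6 of 50 tested large-subunit genes rose and 7 fell (median log2 fold change -0.12), and 4 of 23 tested small-subunit genes rose and 4 fell, with a median of 0.03. Split further by descent, 1 large-subunit gene with a bacterial homologue rose and 5 fell of 29, with a median of -0.15. Of 21 mitochondria-specific large-subunit genes 5 rose and 2 fell, with a median of 0.00. Small-subunit genes with a bacterial homologue had 2 rises and no falls among 14 (median 0.05), and mitochondria-specific ones had 2 rises and 4 falls among 9 (median -0.03). Over all genes tested 21.3% were called higher and 21.4% lower, and no difference between these subsets was tested.

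Summed over the tested members, the level was nearly the same in both groups. The sums were 592.4, 587.6 and 577.5 CPM in siNPM1c libraries against 578.6, 578.9 and 576.4 CPM in siControl libraries, and the groups overlapped. The sum over mitochondria-specific large-subunit genes averaged 209.5 ± 0.789 CPM in siNPM1c libraries and 196.7 ± 1.196 CPM in siControl libraries (SD, n = 3 each), and that over large-subunit genes with a bacterial homologue averaged 190.3 ± 1.65 CPM in siNPM1c libraries and 198.3 ± 2.23 CPM in siControl libraries. On this scale the groups did not overlap in either sum; the first was higher and the second lower in siNPM1c libraries.

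Set against protein-coding counts in place of the TMM-scaled size, the siNPM1c libraries were the lower ones. All 77 members had 2312, 2294 and 2269 CPM of protein-coding counts in siNPM1c libraries, against 2386, 2394 and 2384 in siControl libraries, without overlap. The sum over mitochondria-specific large-subunit genes then overlapped, at 812.1, 817.0 and 823.4 in siNPM1c libraries against 814.7, 809.2 and 807.0 in siControl libraries. That over large-subunit genes with a bacterial homologue stayed lower, at 741.5, 749.6 and 740.6 in siNPM1c libraries against 807.8, 828.7 and 821.9 in siControl libraries. No p is given for these sums, since with 3 libraries a group the exact permutation test stops at 0.1 (two-sided).

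**Figure D3:**
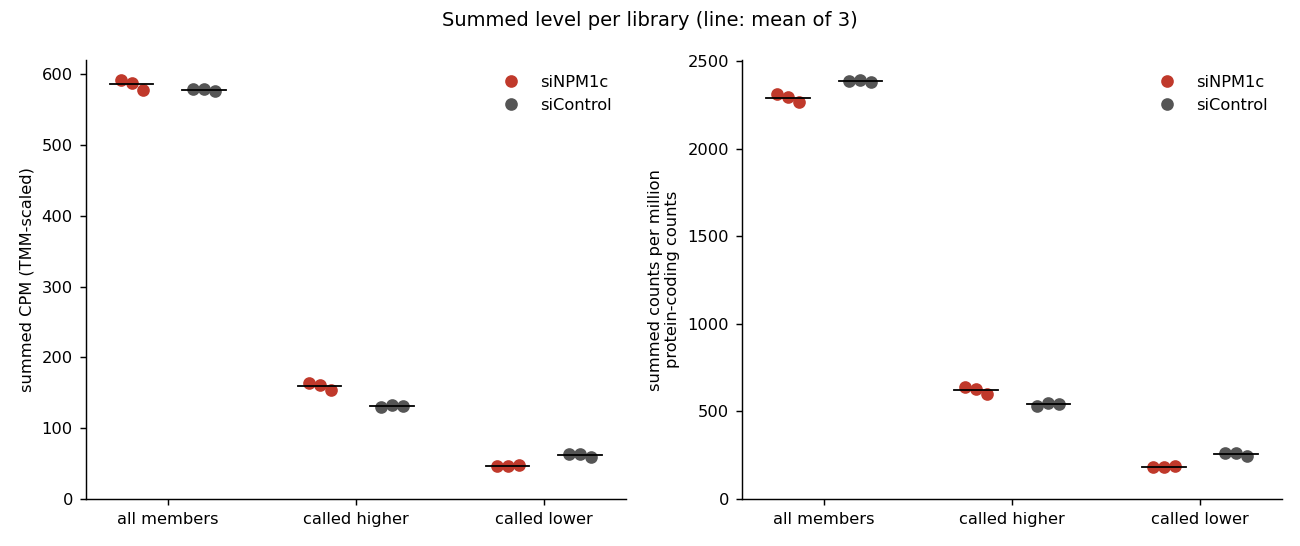
Summed level per library of all members, of those called higher and of those called lower, siNPM1c left of siControl; the left panel gives TMM-scaled CPM of tested members and the right panel CPM of protein-coding counts of all 77, both from 0, with points for libraries and lines for means of 3. The sum over all members overlaps between groups on the left (577.5 to 592.4 in siNPM1c, 576.4 to 578.9 in siControl) and does not on the right (2269 to 2312 in siNPM1c, 2384 to 2394 in siControl).

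Fold changes moved with the GC content of the transcripts, among the members as in the whole table. Of 21 members under 45% GC, 2 rose and 9 fell, which is 9.52% and 42.9% of them, where 10.3% and 34.8% of the protein-coding genes of that range were called higher and lower; the medians were -0.38 for the members and -0.20 for those genes. From 45% to 55% GC, 4 rose and 1 fell of 31 (12.9% and 3.23%, beside 19.3% and 22.3% of protein-coding genes), with medians of 0.00 and -0.03. At 55% or more, 4 rose and 1 fell of 21 (19.0% and 4.76%, beside 31.9% and 13.4% of protein-coding genes), with medians of 0.08 and 0.08. Spearman's rho between log2 fold change and GC content was 0.38 over the 73 members and 0.31 over 11613 protein-coding genes, a description across genes of the same libraries. MRPL10 stands outside this pattern as the 1 lower member at 55% GC or more, and MRPS10 and MRPS18C as the 2 higher members under 45%.

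With each library's trend on GC content removed, rho over the members was 0.11, and 9 members were called higher and 10 lower, beside 18.7% and 22.1% of all genes. Of the original calls 8 higher and 6 lower ones remained. MRPL41, MRPS34, MRPL13, MRPL42, MRPL50, MRPS22 and MRPS27 were no longer called, while MRPS30 was called higher and MRPL17, MRPL28, MRPS12 and MRPS2 lower. MRPL10 was then at -0.62, MRPL40 at 0.50, MRPL57 at 0.36, MRPL49 at 0.25 and MRPL4 at 0.17. Whether GC content or another property of the transcripts that goes with it underlies the trend was not tested.

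**Figure D4:**
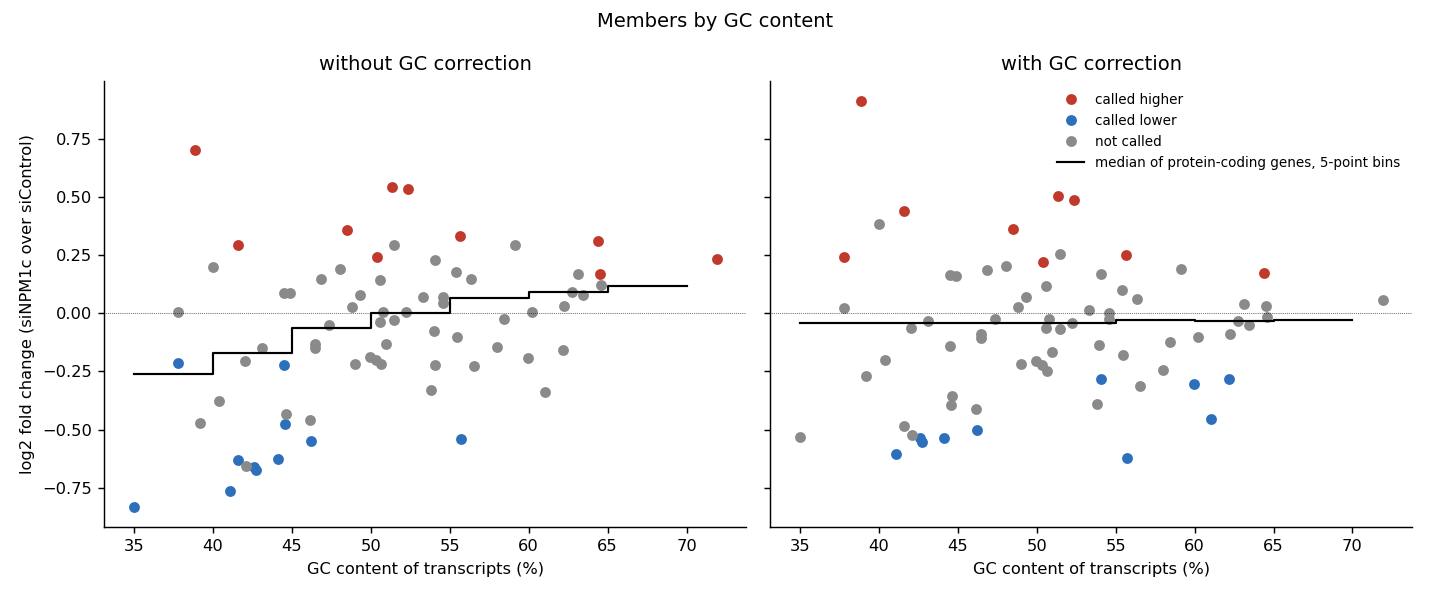
Log2 fold change (siNPM1c over siControl, y axis) of the 73 tested members against the GC content of their transcripts in % (x axis), without a correction for GC content on the left and with it on the right; points are members coloured by call, and the stepped line is the median of protein-coding genes in bins of 5 percentage points. The members follow the slope on the left (rho 0.38) and less so on the right (rho 0.11).

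Promoters of these genes are known for binding sites of ETS factors such as GABP, of YY1 and of NRF1, and the letters of these motifs were looked for. RefSeq promoters (GRCh38.p14, 250 bases before to 50 after the gene's start) were matched for 69 of the 77 members. The core ETS letters CCGGAAG, on either strand, occurred in 29 of them (42%), against 19.9% of 9594 tested protein-coding genes and 10.7% of all promoters in the table. The YY1 letters AANATGGC occurred in 36.2% of member promoters, against 10.4% of tested protein-coding genes and 6.82% of all promoters. The NRF1 motif, whose letters stand in capitals in the MRPL57 and MRPS33 sites, occurred in 11.6% of member promoters, against 12% of tested protein-coding genes and 6.28% of all promoters. None of the 3 motifs contains another, both strands were read for each, and a match is only a run of letters.

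Some sites of members that rose and fell are shown to compare them letter by letter. Each has 30 bases with only the named site in capitals, on the strand on which the motif reads forward. Further ETS sites at -29 in MRPS34 and at -87 in MRPS22 fall within the stretches shown, where they stand in small letters. Not shown here are ETS sites at -193 in MRPL58, -71 in MRPS34 and 6 in MRPS22. The ETS sites at -222 in MRPS18C, which rose, and at 1 in MRPS33, which fell, are also left out. Among genes that rose, the motif began at -11 from the gene's start in MRPL40 (chr22:19432523-19432552, plus strand), at -8 in MRPL58 (chr17:75012651-75012680, plus strand), at -22 and at 10 in MRPS10 (chr6:42217865-42217894 and chr6:42217834-42217863, both minus strand), at -19 in MRPS34 (chr16:1773135-1773164, plus strand) and at -74 in MRPL57 (chr13:21176574-21176603, plus strand).
MRPL40, ETS: ggggcgcacgcCCGGAAGcggcgagggtag
MRPL58, ETS: ggaagcgcccgCCGGAAGcagtcgcaagac
MRPS10, ETS: ccgctgtaaccCCGGAAGcaatcctgagag
MRPS34, ETS: tcagcggtccggCCGGAAGtcaccggaaga
MRPS10, YY1: tcgggaccggcAAGATGGCggcgcggacag
MRPL57, NRF1: cctcggctctGCGCAGGCGCagtcctctct

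Among genes that fell, the motif began at -32 in MRPL3 (chr3:131502985-131503014, minus strand), at -79 in MRPS22 (chr3:139343904-139343933, minus strand), at 24 in MRPL50 (chr9:101398577-101398606, minus strand), at 9 in MRPL42 (chr12:93467511-93467540, plus strand), at 17 in MRPS27 (chr5:72320206-72320235, minus strand) and at -155 in MRPS33 (chr7:141015088-141015117, minus strand).
MRPL3, ETS: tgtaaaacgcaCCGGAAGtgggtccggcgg
MRPS22, ETS: aggcggaaagggCCGGAAGtcttccgggcc
MRPL50, YY1: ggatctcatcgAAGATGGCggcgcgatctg
MRPL42, YY1: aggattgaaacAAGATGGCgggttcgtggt
MRPS27, YY1: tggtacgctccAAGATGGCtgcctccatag
MRPS33, NRF1: tagccttactGCGCAGGCGCcaggtacacc

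The same letters thus stood near the start of genes that rose and of genes that fell. The ETS letters were in 5 of 10 promoters of higher members, 3 of 8 of lower members and 20 of 47 of uncalled members, and the YY1 letters in 1 of 10, 3 of 8 and 18 of 47. No test of these shares was made.

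Whole upstream stretches are shown for 2 genes at the ends of the range whose windows meet no annotated exon, MRPL58, which rose, and MRPL50, which fell the most. The 250 bases before MRPL58 (chr17:75012420-75012669, plus strand) hold the ETS letters at -193 and at -8, in capitals, the first on the opposite strand. The 250 bases before MRPL50 (chr9:101398619-101398868, minus strand) hold none of the 3 motifs.
MRPL58 upstream: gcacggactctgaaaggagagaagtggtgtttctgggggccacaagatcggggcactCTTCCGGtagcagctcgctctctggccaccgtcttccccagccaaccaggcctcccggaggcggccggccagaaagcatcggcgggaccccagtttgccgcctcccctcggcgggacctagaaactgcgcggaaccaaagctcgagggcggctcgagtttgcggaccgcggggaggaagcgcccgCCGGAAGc
MRPL50 upstream: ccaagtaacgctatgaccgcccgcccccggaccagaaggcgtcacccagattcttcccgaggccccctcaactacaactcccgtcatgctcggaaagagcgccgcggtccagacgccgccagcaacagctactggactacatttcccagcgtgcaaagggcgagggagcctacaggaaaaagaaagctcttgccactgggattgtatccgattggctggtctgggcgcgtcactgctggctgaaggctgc

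Several members share a start region with a gene that runs the other way. GENCODE 29 gave 14 such head-to-head pairs, with starts 6 to 259 bases apart, and both genes were tested in 13 of them. MRPL46 and MRPS11, 34 bases apart, are each other's neighbour, at -0.20 ± 0.26 and 0.07 ± 0.12. In 1 pair both genes were called and in the same direction, MRPS34 (0.17 ± 0.05) and EME2 (0.19 ± 0.07; adjusted p = 0.0226, edgeR). TCP1, a subunit of the cytosolic chaperonin, fell (-0.42 ± 0.08) 63 bases from MRPL18, which was not called (-0.22 ± 0.12). MRPL10, MRPL50, MRPL57 and MRPS18C were called beside neighbours that were not, LRRC46, ZNF189, SKA3 and HELQ.

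Overlaps and copies limit some of these counts. Exons of 41 members overlap those of another gene, 29 on the opposite strand and 16 on the same strand, and 41 members have at least 1 named pseudogene. Of 34 tested members free of exon overlap 6 rose and 6 fell (17.6% each), among them MRPL10, MRPL40, MRPL57 and MRPL58. Of 39 tested members with exon overlap 4 rose (10.3%), which were MRPL4, MRPL49, MRPS18C and MRPS25. Among these 39, 5 fell (12.8%), which were MRPL13, MRPL19, MRPL42, MRPS22 and MRPS27. Over all genes tested 21.3% were called higher and 21.4% lower. MRPL57 and MRPS18C have 8 and 6 named pseudogenes, and how the counting treated reads that fit several places is not given in the sources used here.

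Other genes of the same pathway were set beside the members, where 21.3% of all genes tested were called higher and 21.4% lower. Among mitoribosomal proteins that carry other symbols, AURKAIP1 rose on TMM scaling (0.17 ± 0.05) but lay at -0.30 with library sizes alone, at 0.01 with GC correction and, no longer called, at 0.13 without siNPM1c replicate 1. DAP3 of the small subunit, a GTP-binding protein, fell (-0.21 ± 0.08). Its call ended without siNPM1c replicate 2 (-0.21), siNPM1c replicate 3 (-0.15) or siControl replicate 3 (-0.18), with GC correction (-0.16) and in DESeq2 (-0.21). PTCD3 (-0.11 ± 0.10) and GADD45GIP1 (0.10 ± 0.09; -0.37 with library sizes alone) were not called, and CHCHD1 was not tested. Of 30 assembly factors 4 rose and 3 fell (13.3% and 10%), with a median of -0.01. RCC1L (0.31 ± 0.05) and the assembly GTPase MTG1 (0.24 ± 0.06) rose on TMM scaling and were below 0 with library sizes alone, and MRM2, which methylates the large ribosomal RNA of mitochondria, fell (-0.27 ± 0.07).

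Of 17 translation factors 3 rose and 4 fell (17.6% and 23.5%, median -0.03). LRPPRC, which stabilises mitochondrial messenger RNAs, fell (-0.39 ± 0.05), OXA1L, which inserts new chains into the inner membrane, fell (-0.36 ± 0.09), and the rescue factor MTRFR rose (0.58 ± 0.15). Of 18 genes for mitochondrial transcription and genome maintenance 2 rose and 4 fell (11.1% and 22.2%, median -0.20). The mitochondrial topoisomerase TOP1MT had 31.5, 27.8 and 27.3 CPM in siNPM1c libraries against 16.6, 18.4 and 17.7 CPM in siControl libraries (0.70 ± 0.07), the ribonuclease PNPT1 rose (0.64 ± 0.09), and the poly(A) polymerase MTPAP fell (-0.44 ± 0.14). The MTPAP call ended without siNPM1c replicate 2 (-0.34) and with GC correction (-0.30). The transcripts of the mitochondrial genome itself were not analysed here.

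Of 8 tested nuclear regulators of mitochondrial genes 3 rose and 3 fell (37.5% each). Those that fell were GABPA, PPRC1 (-0.19 ± 0.07) and MYC (-0.13 ± 0.05). The coactivator PPARGC1B (0.46 ± 0.07), the receptor ESRRA (0.30 ± 0.05) and YY1 (0.26 ± 0.04) rose on TMM scaling and were at or below 0 with library sizes alone. GABPA, the DNA-binding part of GABP, and NRF1 were looked up for their motifs after their values were seen. GABPA had 1.73, 1.77 and 1.82 CPM in siNPM1c libraries against 2.78, 2.68 and 3.23 CPM in siControl libraries and fell (-0.69 ± 0.20), while NRF1 was not called (-0.07 ± 0.12).

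The nuclear-encoded respiratory chain subunits assemble with the products of the mitochondrial ribosome. They had 13 rises and 12 falls among 74 tested (17.6% and 16.2%) and a median of 0.04. ATP5F1B fell (-0.33 ± 0.03), and NDUFA13 (0.42 ± 0.05) and COX6A1 (0.44 ± 0.05) rose on TMM scaling but lay at -0.06 and -0.03 with library sizes alone. The proteins of the cytosolic ribosome differed in their counts: 7 rose and 51 fell of 76 tested (9.21% and 67.1%), with a median of -0.27. For the mitochondrial ribosome 10 rose and 11 fell of 73 (13.7% and 15.1%), beside 21.3% and 21.4% of all genes tested. RPLP0 had 223.5, 229.3 and 215.5 CPM in siNPM1c libraries against 337.1, 339.9 and 342.7 CPM in siControl libraries (-0.61 ± 0.02), and RPS3A (-0.66 ± 0.03) and RPL7 (-0.76 ± 0.04) fell as well. The cytosolic genes had a median level of 53.0 CPM and the members one of 5.42 CPM, with median SEs of their log2 fold changes of 0.04 and 0.13, and the difference between the lists was not tested.

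**Figure D5:**
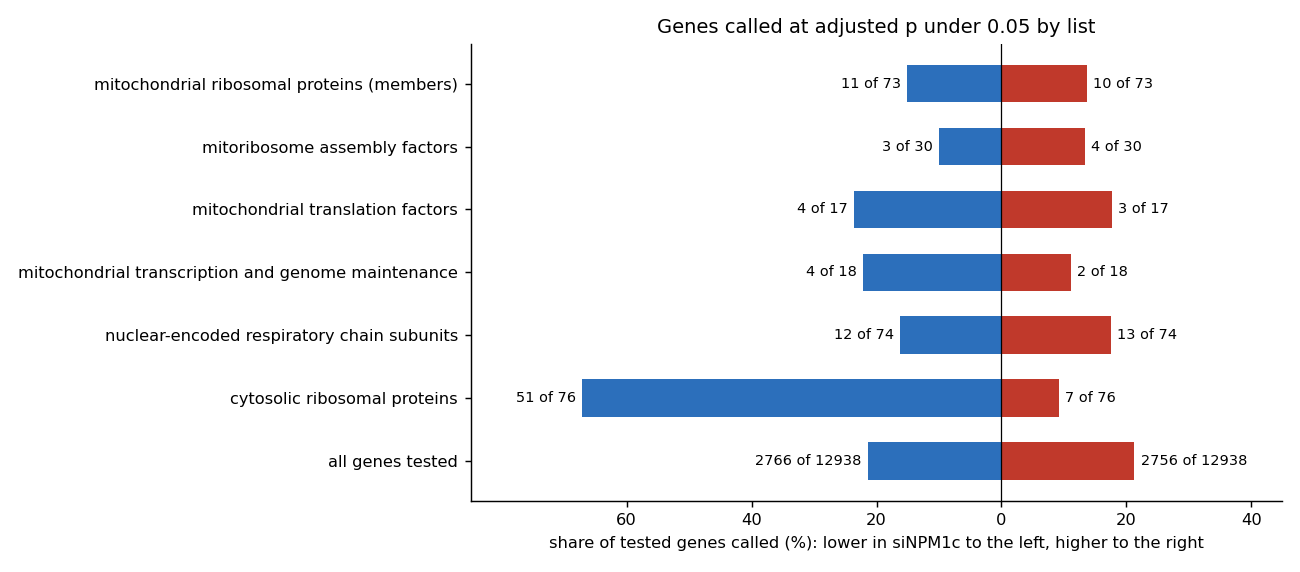
Share of tested genes in % called higher (right, red) and lower (left, blue) in siNPM1c libraries on TMM scaling, for the members, 5 further lists and all genes tested; numbers give genes called of genes tested. The members have 10 higher and 11 lower of 73, and the cytosolic ribosomal proteins 7 higher and 51 lower of 76; with library sizes alone the members have 0 higher and 60 lower.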

How the data were processed

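Counts for 3 siNPM1c and 3 siControl libraries came as 1 deposited table of whole, unnormalized read counts by Entrez identifier; 28261 of 28307 identifiers were matched to a symbol. STAR 2.7.5a, cutadapt 2.6, DESeq2 1.34.0 and CASAVA 1.8 appear in the submitters' processing notes, as do hg38 and mm10; their roles, the counting tool, its annotation and its strand setting are not given in the sources used here. No column was left unused.

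Genes passed filterByExpr (minimum count 10, minimum total 15), were scaled by TMM and were compared with edgeR 4.0.16 in R 4.3.3 (glmQLFit, robust; glmQLFTest, two-sided), with p-values adjusted after Benjamini and Hochberg over all genes tested and calls at an adjusted p under 0.05. Fold changes are siNPM1c over siControl. The SE is the absolute log2 fold change over the square root of F, and a 95% interval is 1.96 SE on either side. CPM per kilobase used the median length of GENCODE 29 principal transcripts, and GC content (97.06% of tested genes) the median over transcripts, with a lowess span of 0.3 for the correction. Motif positions count from the gene's start to the motif's most upstream base, negative upstream. Pairs were head-to-head up to 500 bases apart. The code was tested on simulated counts.

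Replicates differed by more than sampling noise (chi-square per degree of freedom 1.46 to 2.36 within groups, 23.9 to 38.5 between). Values in every library are given for up to 10 members with the smallest adjusted p in each direction, the 3 highest and 3 lowest per kilobase and 7 chosen for their roles; MRPL50 falls among the lowest. From each further list up to 3 called genes with the smallest p are named. TCP1, EME2, FAU, GABPA, NRF1, PPRC1, MYC and the uncalled members near the threshold are named with their values known. The members, lists and tests were chosen with earlier results of these data known. Alternatives were other scalings, filters and tools (DESeq2 1.42.0, limma 3.58.1), a replicate block, GC correction and leaving out each library.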

Additional observations from a re-analysis of the deposited data

How the results depend on the processing

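The member counts depended most on scaling. With library sizes alone 0 members were higher and 60 lower (large subunit 0 and 42, small subunit 0 and 18), and the median was -0.50. Main counts were 10 higher and 11 lower (large 6 and 7, small 4 and 4), with a median of -0.03. DESeq2 called 6 higher and 4 lower (large lower 3, small higher 1, small lower 1). A filter of 5 CPM, which tests 41 members, gave 5 lower (large 4, small 1) and turned the median to 0.016. Without a filter 2 small-subunit members were higher. The median was -0.065 with GC correction and -0.064 with the replicate block and GC correction. Leaving out 1 library gave 7 to 10 members higher, 5 to 10 lower, 5 to 7 and 3 to 7 in the large subunit, 0 to 4 and 2 to 4 in the small subunit, and a median of -0.076 to -0.019; NPM1 stayed at -1.12 to -1.07. The large-subunit lower count was 3 without siNPM1c replicate 2 and 3 without siControl replicate 2, and the small-subunit higher count 0 without siNPM1c replicate 1. Shares of all genes called are given only for the main fit, library sizes alone and GC correction. Changes in the other settings cannot be read as particular to the members.

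Same-numbered libraries did not deviate together (correlations 0.0193, -0.00266 and -0.00409). With the replicate block, 9 members were higher and 10 lower.

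Single genes turned below 0 with library sizes alone: AURKAIP1 (-0.30), CEBPA (-0.21), COX6A1 (-0.028), ESRRA (-0.17), GADD45GIP1 (-0.37), MRPL12 (-0.35), MRPL38 (-0.46), MRPL4 (-0.16), MRPL41 (-0.24), MRPL49 (-0.14), MRPL57 (-0.11), MRPS10 (-0.18), MRPS25 (-0.23), MRPS30 (-0.46), MRPS34 (-0.30), MTG1 (-0.23), NCAM1 (-0.30), NDUFA13 (-0.056), PECAM1 (-0.18), PPARGC1B (-0.0045), RCC1L (-0.16) and YY1 (-0.21). MRPL42 turned to 0.0242 with GC correction and 0.0237 with GC correction and the replicate block. The cause of these shifts was not tested for any setting. Depth limits the low members: the lowest tested one had 90 counts over 6 libraries, and 18 members had an SE over 0.2.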
